A study of Homo sapiens with 6 samples.

Results

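The metallothionein and zinc transporter genes were examined in HK-2 cells, an established human kidney proximal tubule line, with and without overexpression of *PPM1K*. The genes were chosen by name, as 6 metallothioneins (MT2A, MT1E, MT1F, MT1G, MT1M and MT1X), 3 zinc transporters (SLC30A1, SLC39A8 and SLC39A14) and the regulator MTF1. Of these 10 genes, 9 were found by symbol among the 31369 genes of the deposited count table, and MT1G was not analysed here. RNA was sequenced in 3 samples of a control group (NC, genotype WT) and 3 samples of an overexpression group (OE, genotype PPM1K overexpress). The OE cells had received a *PPM1K* plasmid by lipid transfection, and the protocol does not say what the NC cells had received. All 6 samples carry the entries chronic kidney disease as treatment and day 10 as time. The sample titles name shControl for NC and shPPM1K for OE, short hairpins by their names, whereas the genotype entries, the protocol and the paper's methods name overexpression. The number after HK in the cell line entry differs from sample to sample, while the cell type entry is HK-2 throughout.

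Metallothioneins are small proteins rich in cysteine that hold zinc and copper inside the cell. MTF1 is the transcription factor that senses free zinc, binds short DNA motifs called metal response elements and switches on the metallothionein genes and SLC30A1. SLC30A1 pumps zinc out of the cell, while SLC39A8 and SLC39A14 bring zinc, manganese and iron in. *PPM1K* codes for the mitochondrial phosphatase that activates the complex breaking down branched-chain amino acids.

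In OE, the importer SLC39A14 rose 1.57-fold, the exporter SLC30A1 rose 1.29-fold and the most abundant metallothionein, MT2A, rose 1.13-fold. The minor metallothionein MT1F fell, to 0.770 of its NC level. The other 5 genes analysed, MT1E, MT1X, MT1M, SLC39A8 and MTF1, did not pass the test. None of the 9 genes reached a fold change of 2 in either direction. The test was edgeR's quasi-likelihood test on the deposited counts, with p-values adjusted by Benjamini-Hochberg over 15878 genes and a threshold of 0.05. Under 14 alternatives in processing or samples, the calls of SLC39A14 and SLC30A1 held in all. The call of MT2A, whose groups overlapped, held in 7 and that of MT1F in 11. All 9 genes passed the filter on low counts. Of them, 3 were higher (33.3%) and 1 was lower (11.1%), where 24.9% of all tested genes were higher and 23.7% lower at the same threshold. With the fold change threshold added, 1.73% of all tested genes were called higher and 3.79% lower, and none of the 9 was. The median log2 fold change was 0.13 over the 9 genes and −0.0032 over all tested genes. Nothing in the labels says that the samples came from separate cultures, so the p-values measure the spread between these samples only.

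The total count per sample was between 34635770 and 36116963 in NC and between 36033404 and 39850802 in OE. In CPM, the counts scaled to a common library size, *PPM1K* had a level of 1.03 ± 0.468 in the NC samples and of 86.3 ± 5.14 in the OE samples (SD, n = 3 each), the direction that the genotype entries give. NC replicate 2 stood apart with 26478 genes that had a count, against 22094 to 22913 in the other samples. Without it the test gave 3 of the genes studied here higher and 1 lower. Markers of tubule epithelium were present, with PAX8, KRT8, KRT18 and EPCAM at 7544 counts or more in each sample, but several that define the proximal tubule were near absent. The highest count in any sample was 5 for AQP1, 1 for LRP2, 6 for CUBN and 8 for HNF4A. Of the 16 epithelial markers 12 were tested, of which 1 was higher (8.33%), 6 were lower (50.0%) and 5 did not pass, where 24.9% of all tested genes were higher and 23.7% lower. The summed level of the epithelial markers was 3466 to 3772 CPM in NC and 2857 to 3081 CPM in OE. Most of this sum was KRT8 alone, with a mean of 2159 CPM in NC and 1543 CPM in OE. The 1 marker that was higher was PAX8, and KRT18 and CDH2 were among those that did not pass. Of 5 leukocyte markers 4 were found, with at most 17 counts in any sample and a summed level of 0.402 to 0.528 CPM in NC and 0.0826 to 0.298 CPM in OE. The defining marker PTPRC had at most 2 counts. The 5 endothelial markers summed to 5.09 to 6.48 CPM in NC and 7.09 to 8.09 CPM in OE, with 2 of 3 tested higher. The 6 fibroblast markers summed to 17.7 to 19.0 CPM in NC and 7.57 to 8.15 CPM in OE, with both tested ones (COL1A1 and LUM) lower. Of all tested genes, 48.6% passed in either direction, so the number of calls among so few endothelial and fibroblast markers says little. By size, LUM stood at 0.261 and COL1A1 at 0.505 of the NC level (adjusted p = 6.36e-09 and 5.73e-08 from edgeR). LUM was past the fold change threshold, where 3.79% of all tested genes were called lower. The endothelial markers PECAM1 and VWF rose 1.43-fold and 1.33-fold (adjusted p = 0.0342 and 0.0307 from edgeR). The part of these shifts in the results was not tested. In bulk RNA, fewer cells with a transcript and less of it per cell cannot be told apart.

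Levels between genes are compared here as FPKM, in which the authors scaled fragments to transcript length and to the mapped fragments of each sample. MT2A stood far above the rest. In the order of the replicate numbers, which is kept for all values below, it had 1922, 1977 and 2127 FPKM in NC. In OE it had 2398, 2396 and 2117 FPKM, and it ranked 14 of 30896 genes by mean FPKM. MT1E came next, at 33.4 ± 1.60 FPKM in NC against 36.9 ± 0.989 FPKM in OE (SD, n = 3 each). All other members lay between 1.32 and 6.22 FPKM in every sample. In NC the order was MT1X with 3.84, SLC30A1 with 3.79, SLC39A14 with 3.70, MT1F with 3.14, MT1M with 3.05, MTF1 with 1.94 and SLC39A8 with 1.48 mean FPKM. The samples of MT1X, SLC30A1 and SLC39A14 overlapped in NC, as did those of MT1F and MT1M and those of SLC39A14 and MT1M, so the order among these 5 genes is mostly not resolved. In OE the order was SLC39A14 with 5.88, SLC30A1 with 4.96, MT1X with 4.29, MT1M with 2.79, MT1F with 2.44, MTF1 with 1.74 and SLC39A8 with 1.52 mean FPKM. There the samples of SLC30A1 and MT1X overlapped, as did those of MT1M and MT1F and those of MTF1 and SLC39A8, whereas all samples of SLC39A14 lay above all samples of SLC30A1.

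**Figure D1:**
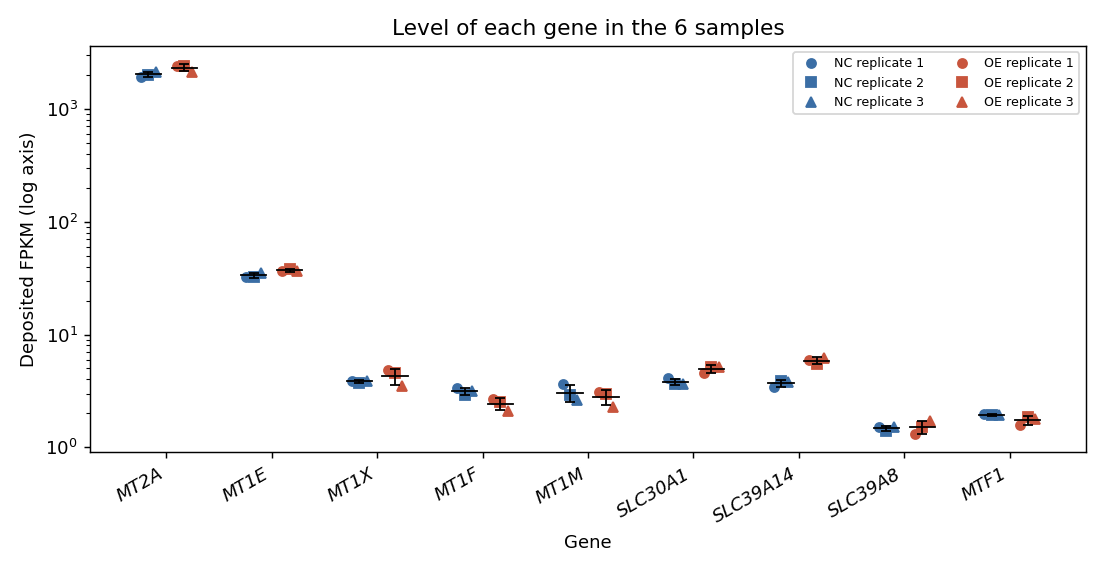
Deposited FPKM on a log axis for the 9 genes in NC (blue) and OE (red). Points are samples, black lines are the mean and SD of 3 samples. MT2A lies between 1922 and 2398 FPKM, MT1E between 32.4 and 38.1, and the other 7 genes below 7 FPKM.

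These FPKM values depend on the length given to each gene. The counts and FPKM imply lengths of 979 bases for MT2A, 1127 for MT1E, 1985 for MT1F, 1849 for MT1X and 547 for MT1M. These were computed with the total of the gene counts in place of the mapped fragments, so they are approximate. The merged exons of these genes in GENCODE 44 come to 914, 1052, 1852, 1727 and 511 bases in the same order, each a little shorter. The reference transcripts of GENCODE 44 for MT2A, MT1F, MT1X and MT1M are 401, 425, 404 and 398 bases long, and that of MT1E 746 bases. Per kilobase of the reference transcript, MT2A had 4970.0 ± 275 CPM (SD, n = 3) in NC, MT1E 51.0 ± 2.44, MT1X 17.8 ± 0.264, MT1F 14.8 ± 0.758 and MT1M 4.25 ± 0.681. On that scale MT1X and MT1F stood further above MT1M than in FPKM, and MT2A was 97.4 times MT1E and 279 times MT1X.

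MT2A alone made up between 97.3% and 97.6% of the counts of the 5 metallothioneins analysed in every sample. Together the 5 genes took 0.194%, 0.207% and 0.215% of all counts in NC and 0.240%, 0.238% and 0.211% in OE. OE replicate 3 therefore lay within the NC range, and the groups overlapped. Without MT2A, the other 4 metallothioneins came to a summed level of 52.4 to 54.9 CPM by raw library total in NC and 52.8 to 57.4 in OE, and the groups overlapped again.

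The 5 metallothionein genes lie within a cluster on chromosome 16 of GRCh38, all on the plus strand. In GENCODE 44 MT2A (ENSG00000125148.7) spans 56608584 to 56609497, MT1E (ENSG00000169715.15) 56625475 to 56627112, MT1M (ENSG00000205364.4) 56632659 to 56633981, MT1F (ENSG00000198417.7) 56657731 to 56660698 and MT1X (ENSG00000187193.9) 56682470 to 56684196. MT1X overlaps 1 other annotated gene, ENSG00000259827, on the same strand, while the others overlap none. Their transcripts are similar, and the authors counted only reads with a unique position. In windows of 75 bases along the reference transcript, none of MT2A, MT1F or MT1M was identical in another metallothionein transcript, against 1.64% for MT1E and 8.18% for MT1X. Allowing 4 mismatches, the share was 38.5% for MT2A, 37.2% for MT1E, 25.9% for MT1F, 28.8% for MT1X and 66.7% for MT1M. The authors sequenced longer reads, in pairs, so these shares are not the shares of ambiguous reads. How far the likeness of the transcripts moved the counts of single metallothioneins was not tested.

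Promoter windows from RefSeq on GRCh38.p14 were found for MT2A, MT1X, SLC30A1, SLC39A8 and MTF1. Those of MT2A and MT1X (the most abundant metallothionein and a minor copy), of SLC30A1 (the exporter that rose) and of MTF1 (the factor itself) are printed below, because MTF1 acts through metal response elements. Each is the 250 bases before the annotated start, 5′ to 3′ on the strand of the gene. Capitals mark the core of the metal response element, searched as TGCACNC and TGCGCNC on both strands. No match overlapped another.
MT2A, chr16:56608334-56608583, plus strand: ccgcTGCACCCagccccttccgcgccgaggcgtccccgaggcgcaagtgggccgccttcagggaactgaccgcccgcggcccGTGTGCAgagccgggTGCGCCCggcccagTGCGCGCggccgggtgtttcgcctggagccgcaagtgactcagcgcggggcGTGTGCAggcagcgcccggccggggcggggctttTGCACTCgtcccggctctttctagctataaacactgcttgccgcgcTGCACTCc
MT1X, chr16:56682220-56682469, plus strand: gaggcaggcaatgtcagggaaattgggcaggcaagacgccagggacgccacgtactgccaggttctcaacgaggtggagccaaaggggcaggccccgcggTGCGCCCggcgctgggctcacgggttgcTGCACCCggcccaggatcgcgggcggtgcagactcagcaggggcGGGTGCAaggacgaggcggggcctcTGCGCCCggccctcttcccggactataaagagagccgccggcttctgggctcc
SLC30A1, chr1:211579162-211579411, minus strand: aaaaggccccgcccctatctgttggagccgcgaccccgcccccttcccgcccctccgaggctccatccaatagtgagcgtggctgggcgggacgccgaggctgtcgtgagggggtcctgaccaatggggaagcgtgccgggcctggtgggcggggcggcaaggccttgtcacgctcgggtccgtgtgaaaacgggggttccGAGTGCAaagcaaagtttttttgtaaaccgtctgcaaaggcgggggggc
MTF1, chr1:37859593-37859842, minus strand: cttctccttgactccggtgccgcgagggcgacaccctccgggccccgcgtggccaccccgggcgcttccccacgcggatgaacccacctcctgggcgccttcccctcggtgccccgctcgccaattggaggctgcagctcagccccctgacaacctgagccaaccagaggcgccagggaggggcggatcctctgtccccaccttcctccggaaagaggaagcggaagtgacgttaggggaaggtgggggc

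The MT2A window held 7 matches and the MT1X window 4, and few promoters held as many. Of 34796 RefSeq windows of the same length, 24.8% held at least 1 match, 0.368% at least 4 and 0.0316% at least 7. The SLC30A1 window held 1 match, on the antisense strand 49 to 43 bases before the start. The MTF1 window held none, and of the 3 start sites of SLC39A8 1 window held a match. These matches are a description of the letters and not of binding.

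**Figure D2:**
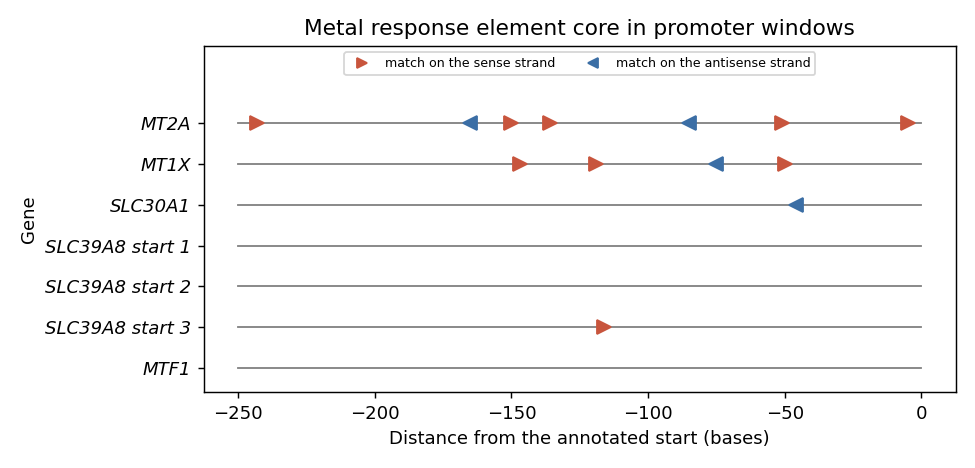
Matches to the metal response element core in the 250 bases before the annotated start of the genes with a promoter window, by distance from the start in bases. Red triangles are matches on the sense strand and blue triangles on the antisense strand. MT2A holds 7 matches, MT1X 4, SLC30A1 1 and MTF1 none.

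MT2A had 1885, 1988 and 2106 CPM in NC and 2381, 2340.1 and 2043 CPM in OE. OE replicates 1 and 2 lay above all NC samples, while OE replicate 3 lay below NC replicate 3. The log2 fold change was 0.18 (standard error 0.06, adjusted p = 0.0226 from edgeR), a 1.13-fold rise with a 95% interval of 1.03 to 1.24. This call was not stable. It held under 7 of 14 alternatives, with a log2 fold change from 0.14 to 0.24, and was lost with the replicate number as a block and with upper quartile normalization (adjusted p = 0.0706 and 0.0770 from edgeR). It was also lost on log2(FPKM + 1) and log2(FPKM + 0.1) (adjusted p = 0.110 and 0.120 from limma) and without NC replicate 1, OE replicate 1 or OE replicate 2 (adjusted p = 0.109, 0.104 and 0.103 from edgeR).

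MT1F had 6.64, 5.99 and 6.29 CPM in NC and 5.36, 5.03 and 4.16 CPM in OE. All OE samples lay below all NC samples. A log2 fold change of −0.38 was found (standard error 0.12, adjusted p = 0.0166 from edgeR), with a 95% interval of the fold from 0.643 to 0.922. The gene is counted less, between 151 and 231 reads per sample, and the call held under 11 of 14 alternatives. It was lost by DESeq2 (adjusted p = 0.0538) and without NC replicate 1 or OE replicate 3 (adjusted p = 0.0677 and 0.0803 from edgeR). The log2 fold changes of MT1F and MT2A thus had opposite signs, though neither call held under every alternative. For each 1000 MT2A counts there were 3.52, 3.01 and 2.99 MT1F counts in NC and 2.25, 2.15 and 2.03 in OE. This ratio does not depend on library scaling and was chosen after the values were seen, so it was given no test.

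MT1E had 36.6, 37.6 and 40.1 CPM in NC and 41.4, 42.8 and 40.6 CPM in OE. The OE samples lay above the NC samples, but by less than the threshold required, with a log2 fold change of 0.13 (95% interval −0.0017 to 0.26, adjusted p = 0.0960 from edgeR). On log2(FPKM + 1), with limma, and with a trend on transcript length removed, the adjusted p was 0.0333 and 0.0348. The number of MT2A counts for each MT1E count was 51.5, 52.9 and 52.5 in NC and 57.5, 54.7 and 50.3 in OE, and the groups overlapped.

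MT1X had 7.18, 7.10 and 7.31 CPM in NC and 9.04, 8.42 and 6.36 CPM in OE. As with MT2A, OE replicates 1 and 2 were high and OE replicate 3 was low, here below every NC sample. Its log2 fold change was 0.14 (95% interval −0.11 to 0.40, adjusted p = 0.350 from edgeR), and without OE replicate 3 it was 0.27 with an adjusted p of 0.0473.

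MT1M had 1.98, 1.65 and 1.45 CPM in NC and 1.73, 1.62 and 1.24 CPM in OE, and the groups overlapped. With 45 to 69 counts per sample its log2 fold change of −0.14 had a wide 95% interval, from −0.60 to 0.31 (adjusted p = 0.617 from edgeR). All 5 metallothioneins were lowest among the OE samples in replicate 3. Against its NC mean, that sample stood at 1.03 for MT2A, 1.07 for MT1E, 0.883 for MT1X, 0.732 for MT1M and 0.659 for MT1F.

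**Figure D3:**
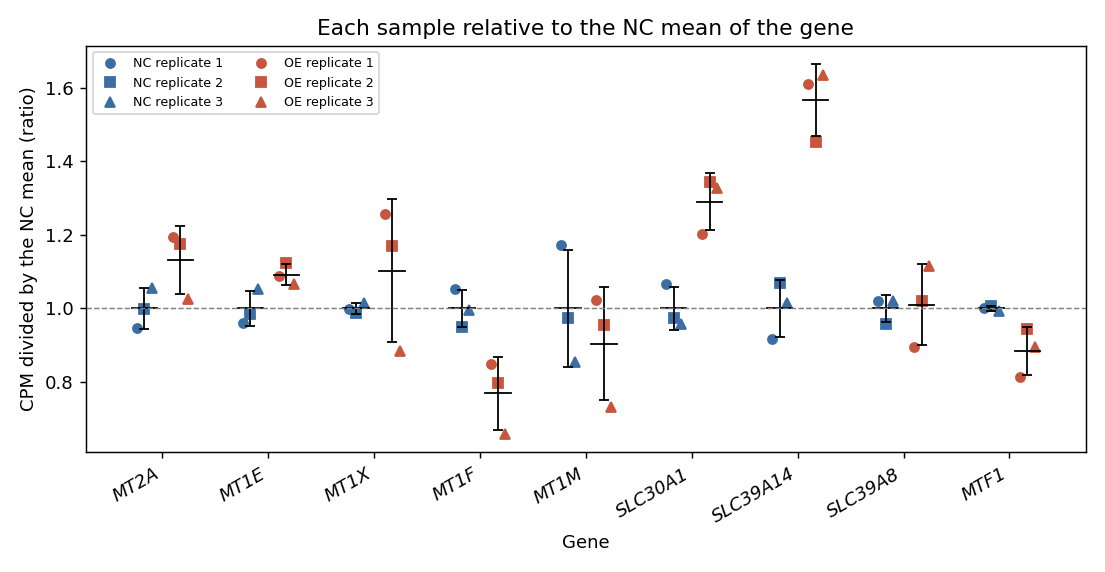
CPM of each sample divided by the NC mean of the gene, for NC (blue) and OE (red). Points are samples and black lines the mean and SD of 3 samples. SLC39A14, SLC30A1 and MT1E lie above NC without overlap in OE and MT1F and MTF1 below it, while OE replicate 3 (red triangles) is the lowest OE sample for each of the 5 metallothioneins.

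MT1A, a further functional metallothionein, had 13, 3 and 5 counts in NC and 6, 6 and 10 in OE. It stayed below the filter on low counts and was not tested. The pseudogenes MT1JP and MT1XP1 had at most 1 and 2 counts in any sample. Of a wider list of 14 metallothionein genes and pseudogenes outside the main set, these 3 were found, and the other 11 (MT1B, MT1H, MT1HL1, MT1L, MT1DP, MT1CP, MT1IP, MT1P1, MT1P3, MT3 and MT4) were not analysed here.

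SLC39A14 (ENSG00000104635.15, chromosome 8, 22367278 to 22434129, plus strand) showed the largest change of the 9 genes. It had 25.5, 29.7 and 28.2 CPM in NC and 44.7, 40.4 and 45.4 CPM in OE. The lowest OE sample lay well above the highest NC sample. The log2 fold change was 0.65 (standard error 0.07, adjusted p = 2.25e-07 from edgeR), a fold of 1.57 with a 95% interval of 1.41 to 1.74. The call held under all 14 alternatives, with log2 fold changes from 0.55 to 0.70. The gene overlaps the pseudogene RPL21P77 on the other strand.

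SLC39A8 (ENSG00000138821.14, chromosome 4, 102251080 to 102431258, minus strand) is the closest relative of SLC39A14 and carries the same metals. It had 13.9, 13.1 and 13.9 CPM in NC and 12.2, 13.9 and 15.2 CPM in OE. The NC range lay within the OE range, and the log2 fold change was 0.01 with a 95% interval of −0.17 to 0.20 (adjusted p = 0.910 from edgeR), an interval of the fold from 0.887 to 1.15. For each SLC39A8 count there were 1.83, 2.27 and 2.02 SLC39A14 counts in NC and 3.66, 2.90 and 2.98 in OE. The groups did not overlap in this ratio, which was also chosen after the values were seen and not tested. SLC39A8 overlaps RN7SL728P and ENSG00000248161 on its own strand.

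SLC30A1 (ENSG00000170385.10, chromosome 1, 211571568 to 211579161, minus strand) overlaps no other annotated gene. It had 25.9, 23.6 and 23.2 CPM in NC and 29.2, 32.6 and 32.2 CPM in OE. All OE samples lay above all NC samples. The log2 fold change was 0.37 (standard error 0.07, adjusted p = 0.000298 from edgeR), and the 95% interval of the fold was 1.16 to 1.44. This call also held under all 14 alternatives, from 0.31 to 0.42.

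MTF1 (ENSG00000188786.10, chromosome 1, 37809574 to 37859592, minus strand) had 16.8, 16.9 and 16.7 CPM in NC and 13.7, 15.9 and 15.0 CPM in OE. The OE samples lay below the NC samples, whose SD was 0.111 CPM. The log2 fold change of −0.18 (95% interval −0.34 to −0.0066, adjusted p = 0.0800 from edgeR) did not pass. It passed with upper quartile normalization (adjusted p = 0.0330) and without OE replicate 2 (adjusted p = 0.0483). MTF1 overlaps ENSG00000235673 on the other strand. In CPM, the groups did not overlap in 5 of the 9 genes, against 55.3% of all tested genes, with 3 higher in OE (SLC39A14, SLC30A1 and MT1E) and 2 lower (MT1F and MTF1), where 28.2% of all tested genes were higher without overlap and 27.1% lower.

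**Figure D4:**
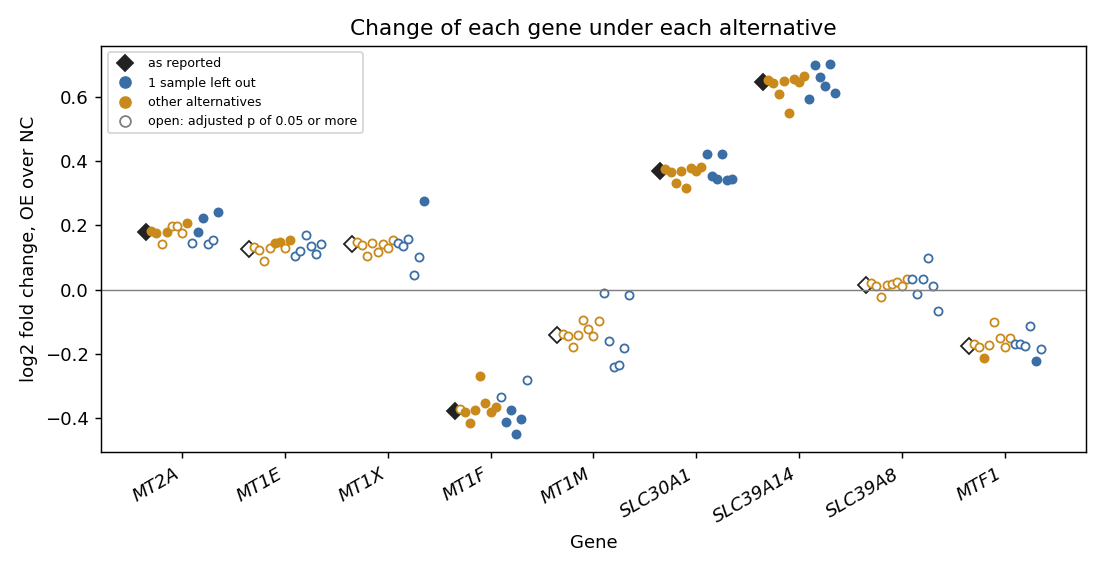
Log2 fold change of OE over NC for each gene as reported (black diamonds), with 1 sample left out (blue) and under the other alternatives (ochre). Filled points have an adjusted p under 0.05. SLC39A14 and SLC30A1 are filled throughout, MT2A under 7 and MT1F under 11 of 14 alternatives, and SLC39A8 lies on both sides of 0.

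The rest of the zinc transporters was examined by list. Of the other 12 zinc importers of the SLC39 family, 9 were tested, of which 2 were higher (22.2%), 4 were lower (44.4%) and 3 did not pass, with a median log2 fold change of −0.06. Of all tested genes, 24.9% were higher and 23.7% lower. SLC39A10, an importer of the plasma membrane, fell from 31.7 ± 1.85 CPM (SD, n = 3) in NC to 21.7 ± 1.62 in OE (log2 fold change −0.55, adjusted p = 4.62e-06 from edgeR). SLC39A6, its close relative at the plasma membrane, fell by 0.30 on the log2 scale (adjusted p = 4.83e-05). SLC39A7, which releases zinc from the endoplasmic reticulum and was the most counted importer at 265 ± 9.78 CPM (SD, n = 3) in NC, fell by 0.31 (adjusted p = 5.96e-05), and SLC39A13 fell by 0.33 (adjusted p = 0.00276, all from edgeR). In the other direction SLC39A1, a widely expressed importer, rose from 172 ± 5.57 to 206 ± 10.2 CPM (SD, n = 3), with a log2 fold change of 0.26 (adjusted p = 0.000254 from edgeR). Counted by the same rule, the importers were lower in 4 under every alternative and higher in 1 or 2, with 1 without NC replicate 2. The log2 fold change of SLC39A14 was the largest of the 11 importers tested.

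The list of other zinc exporters did not separate export from the cell from transport into its compartments. Of its 10 genes, 6 were tested. None of the 6 passed in either direction by edgeR or under any alternative, DESeq2 and limma included. At an unadjusted p under 0.05 there was 1, SLC30A6, with a log2 fold change of 0.22 (adjusted p = 0.0866 from edgeR). SLC30A9 and SLC30A5, the most counted of them, had log2 fold changes of −0.05 and −0.04 with 95% intervals of −0.18 to 0.08 and −0.20 to 0.12. The summed level of the list was 69.6 to 71.4 CPM in NC and 67.5 to 71.9 CPM in OE. The median log2 fold change of the 6 was 0.08, beside 0.37 for SLC30A1.

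**Figure D5:**
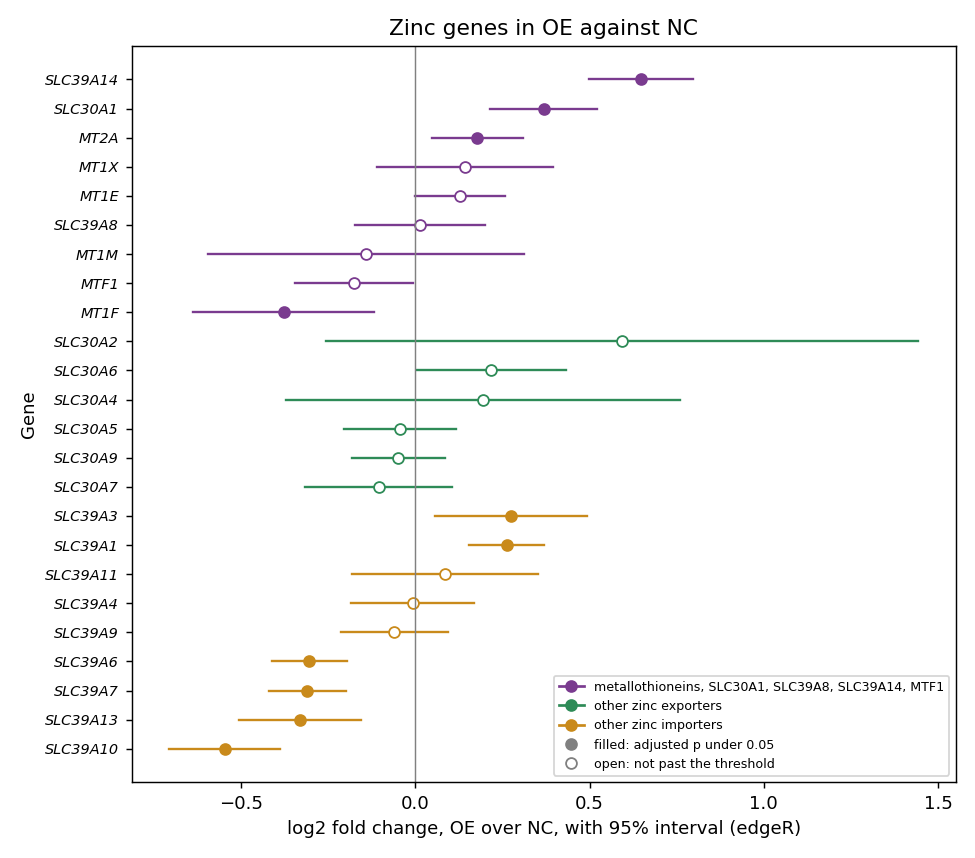
Log2 fold change of OE over NC with its 95% interval for the 9 genes (purple), 6 other zinc exporters (green) and 9 other zinc importers (ochre), by edgeR. Filled points have an adjusted p under 0.05. SLC39A14 lies highest among the importers at 0.65 and SLC39A10 lowest at −0.55, and no exporter other than SLC30A1 is filled.

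Metallothioneins also bind copper, and SLC39A8 and SLC39A14 also carry iron, so both systems were counted. Of 12 copper genes, all tested, 4 were higher (33.3%), 2 lower (16.7%) and 6 did not pass, with a median log2 fold change of 0.09, where 24.9% of all tested genes were higher and 23.7% lower. The copper pump ATP7A had 2.28 ± 0.0158 CPM in NC and 4.07 ± 1.06 CPM in OE (SD, n = 3 each), a log2 fold change of 0.83 (adjusted p = 0.000577 from edgeR). It had only 79 to 191 counts per sample and overlaps PGK1 and C4orf46P2 on its own strand and PGAM4 on the other. How far these overlaps moved its counts was not tested. The copper importer SLC31A1 had a log2 fold change of 0.21 and SCO1, which delivers copper to cytochrome oxidase, of 0.24. COMMD1 had 0.23, and the metalloreductase STEAP3, counted here with the copper genes only, had −0.52 (adjusted p = 1.20e-07 from edgeR). Of 13 iron genes, 4 were higher (30.8%), 3 lower (23.1%) and 6 did not pass, with a median of 0.08. Both lists thus had shares of calls near those of all tested genes, and the values that follow are of single genes. FTH1, the ferritin heavy chain that stores iron, rose from 2617 to 3398 CPM (log2 fold change 0.38) and the transferrin receptor TFRC rose by 0.35 on the log2 scale. The iron chaperone PCBP1 rose by 0.43, while ACO1, the iron-sensing aconitase, fell by 0.57 (adjusted p = 1.47e-07 from edgeR) and the mitochondrial importer SLC25A37 by 0.27. Without NC replicate 2 the counts were 4 and 2 for copper and 3 and 3 for iron.

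Across the 6 samples, the genes most like MT2A and SLC30A1 were sought among 11763 genes whose counts averaged 100 or more. The genes studied here were left out of that search. Likeness was measured by the root mean square difference of log2(CPM + 0.5) centred on each gene's mean. Nearest to MT2A were FIBP, FABP5, CA11, ZSWIM1 and ZSWIM7, with differences from 0.0217 to 0.0292, where the SD of MT2A itself was 0.133. Nearest to SLC30A1 were NUDCD3, CEP20, TCF20, VIPAS39 and IGFBP4, with differences from 0.0192 to 0.0331, where the SD of SLC30A1 was 0.212. Their log2 fold changes were 0.15 to 0.22 and 0.37 to 0.40, near those of MT2A and SLC30A1 because the search selects for that. None of these 10 genes is one of the other zinc transporters of the lists used here. Those transporters are few among the 11763 genes searched, so their absence says little. No metallothionein could appear, because those tested were left out of the search.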

How the data were processed

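RNA of 6 HK-2 samples was sequenced as stranded mRNA libraries read from both ends. The authors trimmed reads, used HISAT2 to align them to GRCh38, and from reads with a unique position made a count for each gene. The deposited counts are not normalized, and the deposited FPKM values were computed by the authors from the same reads and are given to 2 decimals. The submitters' notes list mm10 beside GRCh38. The counting program, annotation and strand setting are not given in the sources used here, so overlapping genes are uncertain. At 34635770 to 39850802 counts per sample, counting error weighs most on MT1M and MT1A. It also weighs on MT1F and MT1X, with 151 to 231 and 231 to 334 counts per sample.

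The counts were tested with edgeR 4.0.16 (filterByExpr, TMM, glmQLFit and glmQLFTest) in R 4.3.3, OE against NC, without covariates. Standard errors were derived from the fold change and F statistic. DESeq2 (here version 1.42.0), the tool named in the study's methods, and limma 3.58.1 (pseudocounts of 1 and 0.1 FPKM on the log2 scale) served as alternatives, beside the normalizations, the filter, the replicate block, a length trend and each sample left out. The code was tested on simulated data. GENCODE 44, which held 99.8% of the gene identifiers, gave coordinates. Named genes were *PPM1K*, the chosen genes, up to 5 genes of each further list by smallest adjusted p, all of the further metallothioneins, and the 5 genes nearest to MT2A and to SLC30A1. SLC30A6, SLC30A9, SLC30A5 and the markers were named after their values were seen. The genes and lists were chosen with earlier results of these data known. Promoter windows of MT1E, MT1F, MT1G, MT1M and SLC39A14 were not used here. Figures were drawn with matplotlib 3.10.9.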

Additional observations from a re-analysis of the deposited data

How the results depend on the processing

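Among the genes studied, 3 were higher and 1 lower as reported. The number higher ranged from 2 to 4 over the samples left out in turn, and the number lower from 0 to 2. DESeq2 gave 0 lower and upper quartile normalization 2 lower. With the replicate block 2 were higher (SLC39A14 and SLC30A1) and 1 lower, and the log2 fold change of MT2A was 0.18. Same-numbered samples had correlations of deviations of −0.0147, −0.133 and −0.130, none of them positive. Differently numbered samples were not compared, so these values cannot decide whether the samples were paired. SLC39A8, near 0 as reported, was −0.024 with upper quartile normalization, −0.0141 without NC replicate 2 and −0.0653 without OE replicate 3, and ranged up to 0.0991 with a sample left out. The cause was not tested. SLC39A14 and SLC30A1 kept direction and threshold in all 14 alternatives, and the other zinc importers had 4 lower in each, a count added after seeing the data. limma on log2(FPKM + 1) called 55 genes higher and 69 lower past the fold threshold, and on log2(FPKM + 0.1) 155 and 283, against 274 and 601 by edgeR. Low values are compressed on those scales. Depth limits MT1M, with 45 to 69 counts, and MT1A, which stayed below the filter on low counts. To a lesser degree it also limits MT1F and MT1X.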
